A study of Mus musculus with 15 samples.

Results

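Mouse pancreatic tumour cell clones were divided by how open the chromatin was at the promoter of Cldn3, which encodes a claudin of epithelial tight junctions. The groups were chosen by measured values: a clone was placed in the open group with a CPM value (counts scaled to a common library size) of 12 or more at the peak over the Cldn3 start (GRCm38, chr5:134985631-134986567) and in the closed group below that. The 6 open clones were 7160c2, 6555c3, 6499c4, 6421c2, 6620c1 and 6419c5, and the 7 closed clones were 2699c4, 6556c3, 6694c2, 6422c1, 6419c1, 2838c3 and 6499c3. The labels list 15 samples, and 13 of them had a column in the count table. Each library was made by ATAC-seq, in which a transposase cuts open chromatin, from 50000 tumour cells sorted out of 1 tumour that had grown for 3 weeks under the skin of an untreated C57BL/6 mouse. Each clone is labelled T cell high or T cell low after its tumours: the open clones were T cell high apart from 6419c5, and the closed clones were T cell low apart from 2838c3. Clones 6419c5 and 6419c1 share a number in their names, as do 6499c4 and 6499c3, and each pair was taken as 2 clones of 1 parental tumour. The labels state neither driver alleles nor the age and sex of the mice, and each clone was 1 library, so the spread between libraries holds clone, tumour and preparation together.

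Claudins seal the space between neighbouring epithelial cells, and EPCAM, a surface glycoprotein of simple epithelia, binds and stabilises claudins and is cut by the membrane protease matriptase, the product of St14. In carcinoma cells this junctional programme is lowered by repressors of the ZEB and SNAIL families, which bind E-boxes in promoters such as that of Cdh1, and it is held up by GRHL, OVOL and ESRP factors. Loss of the programme together with gain of vimentin and N-cadherin is called epithelial-mesenchymal transition. ATAC-seq reads how accessible these control regions are, not how much RNA or protein is made.

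The promoters shown are the region that set the groups, 2 further promoters at called peaks with more signal in the open clones (Epcam and Cdx2), and 2 with less (Ptprm and Foxf2). They are RefSeq sequences of GRCm38.p6 on the gene's own strand, from 250 bases before to 50 after the annotated start. Capitals mark matches on either strand to CACCTG, the E-box bound by ZEB and SNAIL proteins, and TGTTTAC, a forkhead site bound by FOXA factors. The windows lie at chr5:134985964-134986263 (plus strand) for Cldn3, chr17:87635729-87636028 (plus) for Epcam, chr5:147307200-147307499 (minus) for Cdx2, chr17:67354410-67354709 (minus) for Ptprm and chr13:31625566-31625865 (plus) for Foxf2.
Cldn3: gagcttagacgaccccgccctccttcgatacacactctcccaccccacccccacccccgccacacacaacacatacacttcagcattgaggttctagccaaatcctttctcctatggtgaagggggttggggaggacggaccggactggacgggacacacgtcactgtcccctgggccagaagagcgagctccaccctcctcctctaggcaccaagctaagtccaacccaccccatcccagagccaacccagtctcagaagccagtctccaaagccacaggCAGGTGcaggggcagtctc
Epcam: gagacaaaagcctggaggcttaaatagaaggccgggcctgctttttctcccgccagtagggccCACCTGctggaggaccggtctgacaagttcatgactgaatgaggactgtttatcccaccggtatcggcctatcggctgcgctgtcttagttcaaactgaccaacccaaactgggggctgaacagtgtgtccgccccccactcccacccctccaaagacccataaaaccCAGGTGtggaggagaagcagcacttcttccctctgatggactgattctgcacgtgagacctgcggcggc
Cdx2: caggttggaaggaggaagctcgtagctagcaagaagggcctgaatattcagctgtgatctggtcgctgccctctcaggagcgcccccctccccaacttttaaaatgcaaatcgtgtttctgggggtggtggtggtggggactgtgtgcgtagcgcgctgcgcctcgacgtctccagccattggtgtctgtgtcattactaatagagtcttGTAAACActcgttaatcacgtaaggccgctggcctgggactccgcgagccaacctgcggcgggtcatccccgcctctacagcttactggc
Ptprm: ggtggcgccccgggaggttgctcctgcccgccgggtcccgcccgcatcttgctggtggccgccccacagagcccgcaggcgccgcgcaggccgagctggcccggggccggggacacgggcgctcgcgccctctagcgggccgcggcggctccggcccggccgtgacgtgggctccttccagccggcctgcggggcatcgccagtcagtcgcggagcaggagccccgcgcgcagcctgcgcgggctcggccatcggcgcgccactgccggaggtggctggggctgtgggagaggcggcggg
Foxf2: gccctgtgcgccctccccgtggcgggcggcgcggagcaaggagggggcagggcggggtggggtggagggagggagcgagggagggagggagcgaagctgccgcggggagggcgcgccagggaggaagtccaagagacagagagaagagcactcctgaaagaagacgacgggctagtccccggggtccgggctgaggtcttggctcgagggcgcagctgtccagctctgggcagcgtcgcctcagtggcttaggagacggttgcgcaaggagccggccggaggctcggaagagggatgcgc
The Cldn3 window held 1 E-box, which lies on the opposite strand and so reads CAGGTG in the printed sequence, at bases 282 to 287 of the window and so just after the start. Epcam held 2, at bases 64 to 69 and at 232 to 237. An E-box was present in 20.2% of all 32851 promoter windows of the table, so a match is common. The Cdx2 window held 1 forkhead match at bases 211 to 217, a motif found in 3.65% of windows. The windows of Ptprm and Foxf2 held none of the motifs searched, which also included AACCNGTT (GRHL, in 2.09% of windows) and TGANTCA (AP-1, 7.81%). The GATA motif AGATAA, present in 11.2% of windows, was also absent from both. A further window at a called lower peak, that of Mrps36 (not shown), held 1 GRHL and 1 GATA match. The windows of Ptprm and Foxf2 had 80.7% and 71.3% G and C, against 60.7% for Cldn3, 57.0% for Epcam, 48.3% for Mrps36 and a median of 52.7% over all windows. The Cldn3, Cdx2, Ptprm and Foxf2 windows overlapped their peaks, and the Epcam window ended 91 bases before its peak.

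At the Cldn3 peak the open clones spanned a wide range. The value was 77.8 CPM in 7160c2, 69.2 in 6555c3, 40.1 in 6499c4, 24.2 in 6421c2, 15.1 in 6620c1 and 14.3 in 6419c5. In the closed clones it was 9.40 CPM in 2699c4, 6.53 in 6556c3, 4.94 in 6694c2, 3.40 in 6422c1, 3.00 in 6419c1, 2.65 in 2838c3 and 1.68 in 6499c3. Reads were present in all 7 closed clones (5 to 27 counts), so closed means low rather than without signal. The clones nearest the threshold were 6419c5 inside the open group and 2699c4 inside the closed group, and the gap between them was smaller than the spread within the open group. These values set the groups and were not tested. Every clone carried signal at Cdh1 (14.8 to 35.5 CPM), Krt8 (7.46 to 35.5) and Krt18 (6.60 to 19.1), genes that mark simple epithelium.

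The libraries held 968296 to 7369228 counts in peaks. These totals averaged 2830700 ± 1729170 (SD, n = 6) in open and 3334667 ± 2051286 (SD, n = 7) in closed clones and differed by less than their SD (p = 0.642, two-sided exact permutation test). Between 38.9% and 43.8% of the counts lay in peaks at gene ends in the open clones (median 41.7%) and between 40.5% and 48.2% in the closed ones (median 41.7%).

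**Figure D1:**
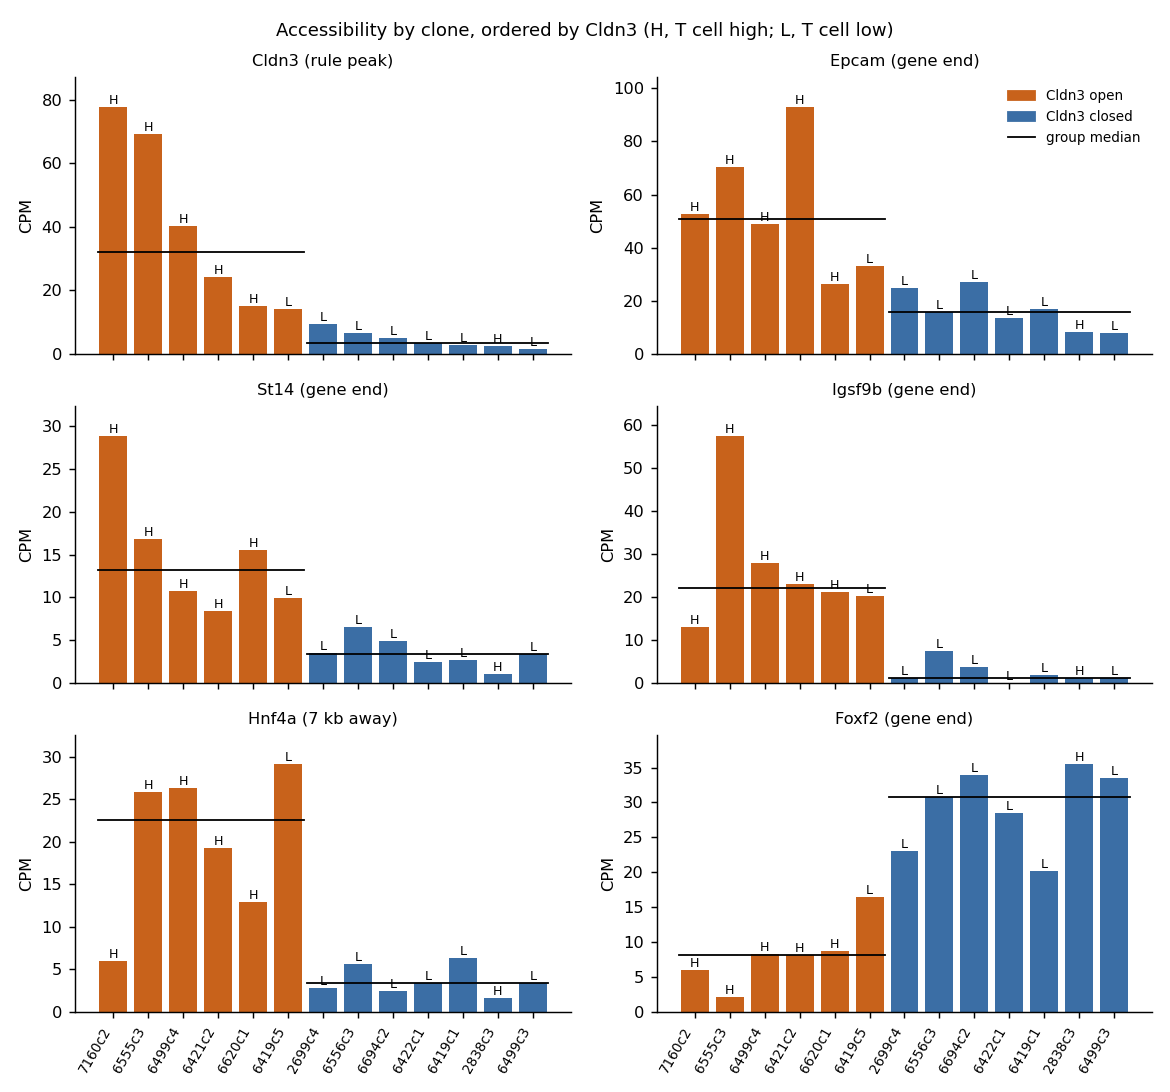
Accessibility in CPM (y axes, from 0) in each of the 13 clones (x axis, ordered by Cldn3) at 6 peaks; bars are single libraries, black lines the group medians, and H or L the T cell label. St14, Igsf9b and Foxf2 separate the groups without overlap, and at Epcam 6620c1 (26.3 CPM) lies below the highest closed clone (27.2 CPM).

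The wider comparison asked which other regions differ with the state of the Cldn3 promoter. A window of chromosome 5 around Cldn3, which held 26 peaks, was left out. Of the 59414 other peaks tested, 274 (0.461%) were called at an adjusted p under 0.05. Of these, 237 (0.399%) had more signal in the open clones and 37 (0.0623%) had less. The higher peaks had a median 4.48-fold difference (2.13 to 14.8) and the lower peaks a median of 2.96-fold (1.62 to 5.54). The open clones did not overlap the closed clones at 96 of the 237 and at 23 of the 37, while 0.773% of all tested peaks showed such a separation. The called peaks were chosen for a difference between these same clones, so their larger share follows from the choice and is no further support. The number called moved with single clones: it was 51 without 6555c3, 79 without 6499c4, 106 without 2838c3, 108 without 6620c1, 136 without 2699c4, 152 without 6694c2 and 489 without 6421c2. It also moved with the threshold at Cldn3, to 16 when clones of 8 CPM or more counted as open and to 18 when 20 CPM was required. The filter on low counts was set by the groups. A filter that ignored them was stricter, as it asked for signal in nearly all clones and so removed peaks low in 1 group. It left 27841 peaks to test, among them only 51 of the 274 called peaks, and 35 of these were called again. With no filter on low counts, 272 of the 274 were called.

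Epcam and St14 were the clearest members of the epithelial surface group. At the Epcam gene-end peak (chr17:87636119-87637408), the open clones had 26.3 to 93.0 CPM (median 51.0) and the closed clones 8.04 to 27.2 CPM (median 15.9). In order of their Cldn3 signal the open clones had 52.8, 70.5, 49.1, 93, 26.3 and 33 CPM and the closed clones 24.7, 15.9, 27.2, 13.6, 17, 8.21 and 8.04 CPM. The 5 other open clones lay above every closed clone, and 6620c1 lay between the 2 highest closed ones, 6694c2 and 2699c4. The log2 fold change, open over closed, was 1.75 (SE 0.31), a 3.36-fold difference with an adjusted p of 0.0130. A weaker peak 7423 bases from the Epcam gene record had 3.30 to 12.5 CPM in the open and 0.00 to 2.80 CPM in the closed clones without overlap. Its log2 fold change was 2.30 (SE 0.49, adjusted p = 0.0329), and this call was lost without 6555c3, 6620c1 or 7160c2 and with offsets for the regional copy level (adjusted p = 0.0984). At the gene-end peak of St14 (chr9:31131309-31132088), the open clones had 8.37 to 28.9 CPM (median 13.2) and the closed clones 1.06 to 6.53 CPM (median 3.35). The groups did not overlap, and the log2 fold change was 2.16 (SE 0.41, adjusted p = 0.0200). Both gene-end calls were lost without 6555c3, with adjusted p values of 0.0573 for Epcam and 0.0681 for St14. With those offsets, Epcam had a log2 fold change of 1.26 (adjusted p = 0.0643) and St14 of 1.95 (adjusted p = 0.0379). With parental tumour as a factor in the model the values were 1.74 (adjusted p = 0.125) and 1.76 (adjusted p = 0.480). That model compares open with closed clones only within the parental pairs, since every other tumour had a single clone.

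A peak at an epithelial splicing regulator was also called. It is among peaks linked to listed genes (nearest gene end within 50 kb) that were picked for description after their values were seen, as was the second Epcam peak. At Esrp1, which directs the epithelial pattern of splicing, a peak 965 bases from the gene end (chr4:11387748-11388472) had 3.45 to 38.9 CPM (median 13.1) in the open and 1.24 to 5.57 CPM (median 2.01) in the closed clones. The log2 fold change there was 2.57 (SE 0.53, adjusted p = 0.0304), and 6620c1 and 6419c5 lay inside the closed range. This call was lost without 2838c3, 6555c3, 7160c2 or 6694c2 and with the regional offsets (adjusted p = 0.0532). The stronger Esrp1 peak at the gene end itself did not pass (1.57, SE 0.62, adjusted p = 0.257). There 2699c4, 6556c3 and 6694c2 had 8.71, 14 and 10.5 CPM and 6419c5 had 1.10.

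Among endoderm and pancreas factors, 3 of 149 linked peaks (2.01%) were called, against 0.317% of all linked peaks. Of the 19 leading gene-end peaks (1 per gene, that with the highest mean count) 0 were called. A peak 7154 bases from Hnf4a, a nuclear receptor that directs endodermal epithelium (chr2:163580061-163580832), had 5.98 to 29.1 CPM (median 22.5) in the open and 1.59 to 6.28 CPM (median 3.35) in the closed clones. Only 7160c2 of the open clones lay inside the closed range, and the log2 fold change was 2.46 (SE 0.39, adjusted p = 0.00571). The peak over the start of Cdx2, the homeobox factor of intestinal epithelium (chr5:147306366-147307584), had 15.9 to 43.8 CPM (median 32.2) in the open and 1.34 to 14.7 CPM (median 11.7) in the closed clones. These groups did not overlap, and the log2 fold change was 1.89 (SE 0.43, adjusted p = 0.0478), although this call close to the threshold was lost without any 1 of 10 clones. A peak inside Cdh17, the liver-intestine cadherin, had 8.79 to 20.5 CPM in the open and 0.933 to 8.04 CPM in the closed clones (log2 fold change 1.80, SE 0.38, adjusted p = 0.0338). The Cdh17 call was lost without any 1 of 5 clones and with the regional offsets (adjusted p = 0.0627). The more accessible gene-end peaks of the same genes did not pass, at 0.29 for Hnf4a (adjusted p = 0.692), 0.56 for Cdx2 (0.223) and 0.48 for Cdh17 (0.645). For Cdx2 this peak lies 680 bases beyond the far end of the gene, whereas the called peak covers the start.

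Single called peaks also lay at genes of other lists. Peaks near Btc, which encodes the EGF receptor ligand betacellulin, and near Amy2a5, an acinar amylase gene, had log2 fold changes of 2.12 (SE 0.44, adjusted p = 0.0290) and 2.47 (SE 0.56, adjusted p = 0.0471). The Amy2a5 peak was faint, with at most 3.73 CPM in a closed clone and at most 19.2 CPM in an open one. The Btc call was lost without any 1 of 6 clones and the Amy2a5 call without any 1 of 10. The Amy2a5 peak was the only call among 19 peaks linked to acinar genes (5.26%), which had a median of -0.24 with 1 higher and 3 lower at an unadjusted p under 0.05. The Btc peak was the only call among 63 peaks linked to genes of the EGF family and its receptors (1.59%). Of all linked peaks 0.317% were called, and both peaks were picked for description because they were called.

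Most of the junctional programme showed no call. At gene-end peaks, 1 per gene, 13 of 12204 genes (0.107%) were called higher in the open clones and 11 (0.0901%) lower, the median log2 fold change was -0.12, and at an unadjusted p under 0.05 2.85% were higher and 9.05% lower. Of 20 measured tight junction genes 0 were called, 15 lay above 0 and the median was 0.21. At an unadjusted p under 0.05, 5 of them were higher and 0 lower. Cldn7 stood at 1.30 (SE 0.49, adjusted p = 0.235) with 4.40 to 18.9 CPM in the open and 1.36 to 10.4 in the closed clones. Cldn23 had 55.7 to 83.3 CPM in the open and 28.0 to 65.7 CPM in the closed clones, and its log2 fold change was 0.75 (SE 0.20, adjusted p = 0.0829). The junction genes F11r (0.46, adjusted p = 0.274), Lsr (0.43, adjusted p = 0.291) and Marveld3 (0.77, adjusted p = 0.351) passed only without adjustment. Occludin (Ocln, 0.11) differed by less than the spread between clones, and Tjp1 had no tested gene-end peak.

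Among 23 measured adhesion and surface protease genes, Epcam and St14 were the 2 called, 17 lay above 0 and the median was 0.16. E-cadherin (Cdh1), the defining adherens junction protein, had a log2 fold change of 0.12 (SE 0.25), with 15.9 to 31.8 CPM in the open and 14.8 to 35.5 CPM in the closed clones. The groups overlapped over almost the whole range at Cdh1. Of 144 tested peaks linked to genes of this list, 3 (2.08%) were called, against 0.317% of all linked peaks. The list of epithelial transcription and splicing regulators had a gene-end median of -0.08 over 11 genes with 0 called at the leading peak of each gene. Of 115 tested peaks linked to genes of that list, 2 (1.74%) were called, against 0.317% of all linked peaks. Its members Elf3 and Klf5, factors of simple and glandular epithelium, had log2 fold changes of 0.23 (SE 0.21) and -0.23 (SE 0.17). The member with the smallest p, Rbpms, had less signal in the open clones (-0.56, SE 0.19, adjusted p = 0.190). Grhl2, Ovol1 and Ovol2 had no tested gene-end peak.

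Polarity and membrane traffic genes had 17 of 25 members above 0, a median of 0.23, and 6 higher and 0 lower at an unadjusted p under 0.05, but 0 called. Cds1, a phospholipid synthesis enzyme, was the nearest to the threshold, with 6.63 to 55.2 CPM in the open and 0.618 to 8.85 CPM in the closed clones (log2 fold change 2.22, SE 0.52, adjusted p = 0.0535). Prom1, which encodes the apical membrane protein CD133, had 33.9 to 71.9 CPM in the open and 8.85 to 38.9 CPM in the closed clones (0.94, SE 0.28, adjusted p = 0.121). Tc2n (0.98, adjusted p = 0.203), Map7 (0.77, adjusted p = 0.273) and Tmem125 (0.68, adjusted p = 0.265) passed only without adjustment. Rab25, a small GTPase of apical recycling, had a log2 fold change of -0.59 (SE 0.60) at low levels, and with the T cell label in the model its value was 0.63. Keratins had a median of -0.05 over 7 genes (0.14 with regional copy offsets), with Krt8 at 0.30 (SE 0.28), Krt18 at -0.05 (SE 0.29; 0.14 with the offsets), Krt19 at -0.24 (SE 0.27) and Krt7 at 0.81 (SE 0.35, adjusted p = 0.307). Hemidesmosome and laminin genes had a median of 0.06 over 8 genes (-0.05 with the offsets).

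Endoderm and pancreas factors had a median of 0.19 at their 19 leading gene-end peaks. Lgals4, a lectin of gut epithelium, separated the groups at its gene-end peak, with 11.5 to 20.7 CPM in the open and 0.00 to 10.1 CPM in the closed clones, yet did not pass the test (log2 fold change 1.74, SE 0.48, adjusted p = 0.102). Sox17, an endoderm factor, varied more within the open group (0.00 to 50.9 CPM) than between the groups (1.93, SE 0.72, adjusted p = 0.223). The EGF family and its receptors had a median of 0.12 over 9 genes, with the second Btc peak at the gene end at 0.65 (SE 0.27, adjusted p = 0.277). Housekeeping genes had a median of -0.13 over 19 genes, near that of all genes, and 0 called. At an unadjusted p under 0.05, 0 of them were higher and 2 lower, against 2.85% and 9.05% of all genes. The 2 were Psmb4 (-0.84, adjusted p = 0.173), where the groups did not overlap, and Sdha (-0.74, adjusted p = 0.100).

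**Figure D2:**
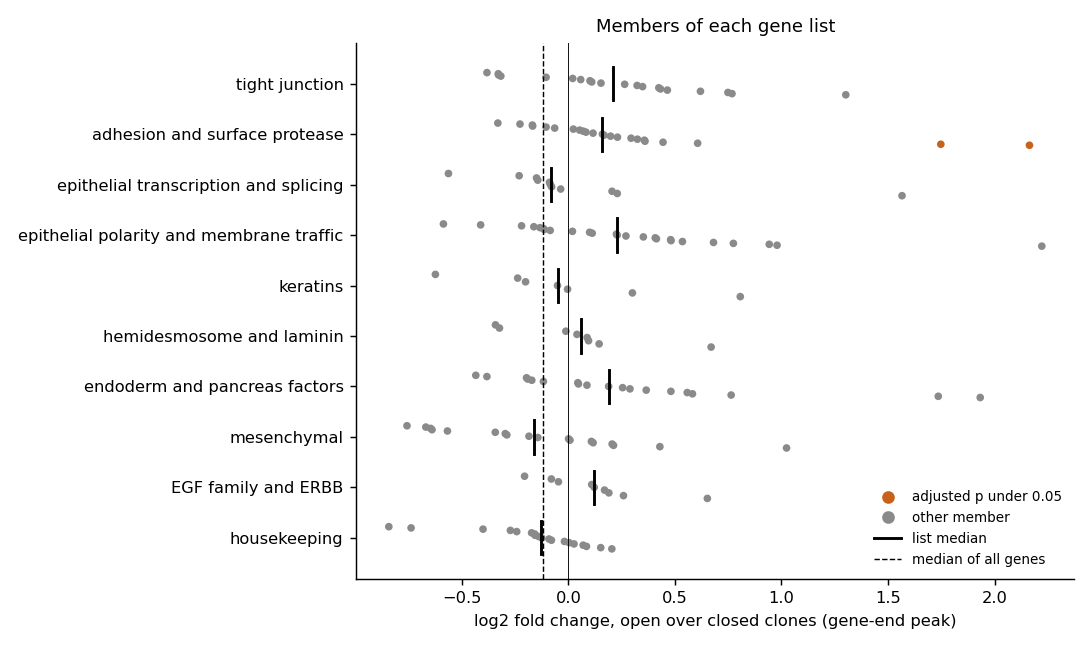
Log2 fold change, open over closed clones (x axis), of each gene's gene-end peak, by gene list (y axis); each dot is a gene, black bars are list medians and the dashed line is the median of all 12204 genes (-0.12). In the 10 lists drawn, Epcam and St14 are the only called members, and the medians lie between -0.16 and 0.23.

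Mesenchymal genes showed no call in either direction. Of 18 measured members 0 were called, 8 lay above 0 and 10 below, and the median was -0.16. Vim, the intermediate filament of mesenchymal cells, had 49.8 to 112 CPM in the open and 48.5 to 139 CPM in the closed clones (log2 fold change -0.29, SE 0.22). N-cadherin (Cdh2) had 7.75 to 85.7 CPM (median 64.9) in the open and 65.4 to 97.7 CPM (median 90.4) in the closed clones. Its log2 fold change was -0.65 (SE 0.31, adjusted p = 0.361), and the lowest value belonged to 6421c2, the clone with the highest Epcam signal. The repressor genes Zeb1 (-0.19, SE 0.20), Snai1 (0.21, SE 0.24) and Snai2 (-0.64, SE 0.27, adjusted p = 0.288) did not pass. Twist1 had a positive value (1.02, SE 0.49, adjusted p = 0.360), with 13.7 to 56.3 CPM in the open and 0.529 to 50.7 CPM in the closed clones. Zeb2 had no tested gene-end peak.

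The peaks with the smallest p values lay at genes outside these lists. Igsf9b, which encodes an adhesion molecule of the immunoglobulin superfamily, had the largest fold change of all called peaks at its gene end (chr9:27298726-27299707), with 13 to 57.6 CPM (median 22.1) in the open and 0.00 to 7.46 CPM (median 1.06) in the closed clones. Its log2 fold change was 3.89 (SE 0.53, adjusted p = 0.00234). A peak inside Clnk, an adaptor of immune receptor signalling (chr5:38845087-38845959), had 10.5 to 29.7 CPM in the open and 0.680 to 3.71 CPM in the closed clones (3.42, SE 0.44, adjusted p = 0.00234), and both tested peaks linked to Clnk were called. Inside Pdzrn3, a ubiquitin ligase gene, 1 peak far from the gene ends (chr6:101271526-101272520) had 9.34 to 66.2 CPM in the open and 1.85 to 6.03 CPM in the closed clones (3.04, SE 0.41, adjusted p = 0.00234). A further 4 of the 6 tested peaks linked to Pdzrn3 were called, with a median log2 fold change of 2.54. Of 6 tested peaks linked to Edn2, the gene of the vasoactive peptide endothelin-2, 3 were called. Of all linked peaks 0.317% were called, but Pdzrn3 and Edn2 were named because 3 or more of their linked peaks were called. The leading Edn2 peak, 2957 bases from the gene (chr4:120170317-120170964), had 5.98 to 21.4 CPM in the open and 0.670 to 5.60 CPM in the closed clones (2.64, SE 0.42, adjusted p = 0.00555).

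The other peaks among the 15 with the smallest p, taken as 1 peak per gene, lay near or inside Tmem45a2 (3.34), Skint4 (3.36), Nt5dc3 (2.50), Ppp1r14bl (2.89), Rab32 (2.15), Fam185a (2.28) and Pkdcc (2.32), or at 5 places over 50 kb from any gene end. Rab32, a small GTPase of organelle biogenesis, was the most open of these, with 34.9 to 73.8 CPM in the open and 3.44 to 25.1 CPM in the closed clones. All 15 calls held when any 1 clone was left out, and the groups did not overlap at 14 of them, Pkdcc being the exception. Over all tested peaks 0.773% showed such a separation, and these 15 were picked by their p values in the same clones.

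Among the peaks with less signal in the open clones the smallest p belonged to Pax2, followed by a peak on chromosome 13 that is 67107 bases from any gene end (-1.51, adjusted p = 0.0109). At Pax2, a transcription factor of kidney and ear development, a peak inside the gene (chr19:44755641-44757571) had 2.59 to 14 CPM (median 7.09) in the open and 20.2 to 68.0 CPM (median 25.1) in the closed clones. Its log2 fold change was -2.15 (SE 0.37, adjusted p = 0.00969), and 2 of the 6 tested peaks linked to Pax2 were called, against 0.317% of all linked peaks. The peak over the start of Foxf2, a forkhead factor of mesenchyme (chr13:31625072-31626459), had 2.15 to 16.5 CPM (median 8.18) in the open and 20.1 to 35.5 CPM (median 30.8) in the closed clones (-1.82, SE 0.33, adjusted p = 0.0133). Both separated the groups without overlap, and both calls held when any 1 clone was left out. The peak over the start of Ptprm, a receptor phosphatase that binds its own kind on neighbouring cells (chr17:67353341-67355118), had 3.44 to 8.64 CPM in the open and 5.36 to 58.8 CPM in the closed clones. Its log2 fold change was -2.30 (SE 0.48, adjusted p = 0.0322), and the call was lost without any 1 of 9 clones. A peak inside Mitf, a transcription factor of the melanocyte lineage and of lysosomal genes, had 3.81 to 16.9 CPM in the open and 9.38 to 50.3 CPM in the closed clones (-2.20, SE 0.40, adjusted p = 0.0149). Apart from Pax2, Foxf2 and the chromosome 13 peak, each of the 15 lower peaks named lost its call without at least 1 clone.

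Further lower peaks lay at Rnf182 (-1.86, 2 of 4 linked peaks called against 0.317% of all linked peaks), Nedd4l (-2.11), Ranbp3l (-1.49), Spef2 (-2.39), Sec24b (-2.15) and Fignl2 (-1.41), inside Itpr2 (-1.56) and Elmo1 (-1.86), and at Mrps36 (-0.90). At Mrps36, a mitochondrial protein gene, the open clones had 25.9 to 46.5 CPM and the closed clones 55.0 to 88.1 CPM. The lower calls gathered on few chromosomes: 13 of 37 lay on chromosome 13, 7 on chromosome 15 and 7 on chromosome 3. These chromosomes held 2607, 2605 and 4144 of the 59414 tested peaks. Over all tested peaks of chromosome 13 the median log2 fold change was -0.37, and the clones' median deviation from the 13-clone mean averaged -0.13 in the open and 0.20 in the closed group. Of the higher calls 33 lay on chromosome 1, 27 on chromosome 5, 24 on chromosome 6 and 21 on chromosome 4, which held 4323, 3638, 3711 and 3161 tested peaks. In both directions together 0.763%, 0.742%, 0.701% and 0.664% of their peaks were called, against 0.461% of all tested peaks. Over all tested peaks of these chromosomes the medians were 0.15, 0.15, 0.06 and 0.13. With offsets for the regional level of each clone, 2 of the 13 lower calls on chromosome 13 remained, as did 16 of all 37 lower and 165 of 237 higher calls. The folds moved less, from a median of -1.56 to -1.39 for the lower and from 2.16 to 2.02 for the higher peaks. For the lower calls the medians moved from -1.51 to -1.05 on chromosome 13, from -1.52 to -1.35 on chromosome 15 and from -1.23 to -1.0 on chromosome 3. Mrps36 had a log2 fold change of -0.52 (adjusted p = 0.168) with these offsets, and Foxf2 -1.32 (adjusted p = 0.0643). Whether the copy number of the chromosome differs between the clones was not tested.

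The 2 directions also differed in where the peaks lay. Of all tested peaks 20.9% lay at a gene end, 39.1% between genes and 25.3% more than 50 kb from any gene end. Of the 237 higher peaks 7.17% lay at a gene end and 45.6% more than 50 kb away. The 37 lower peaks had 32.4% at a gene end and 32.4% more than 50 kb away. These shares are a description, and peaks at gene ends as a whole had a median log2 fold change of -0.10 against 0.02 inside gene records.

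Around Cldn3 itself, the 25 other peaks of the left-out window described how far the difference reached. The mean log2 CPM was 2.83 higher in the open clones at the Cldn3 peak that set the groups. The 25 neighbours had a median difference of 0.25 (-0.37 to 1.43), with 18 above 0. The largest lay 19.4 kb before the Cldn3 peak (1.43) and 15.2 kb after it near Abhd11 (1.38), and at the gene end of Cldn4, the adjacent claudin gene 39.1 kb away, it was 0.96. Tested peaks within about 5 Mb on either side had a median difference of 0.09. Since the window adjoins the peak that set the groups, none of these differences was tested.

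**Figure D3:**
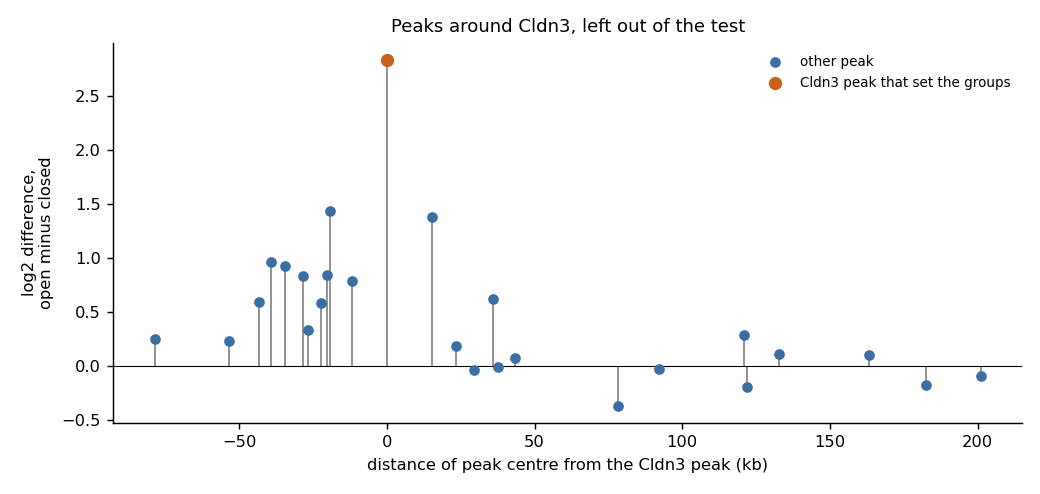
Difference in mean log2 CPM, open minus closed clones (y axis), at each of the 26 peaks of the left-out window against the distance of its centre from the Cldn3 peak in kb (x axis). The Cldn3 peak stands at 2.83, the flanking peaks at 19.4 kb before and 15.2 kb after it at 1.43 and 1.38, and peaks beyond Abhd11 lie mostly near 0.

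The division at Cldn3 and the T cell label coincide in 11 of 13 clones, and 2 clones, 6419c5 and 2838c3, cross. With the label as a second factor, 1 peak (0.00168%) was called for open against closed, between genes on chromosome 3 (chr3:52903882-52904352). It had 4.32 to 27.5 CPM in the open and 0.265 to 4.66 CPM in the closed clones, with a log2 fold change of 4.07 beside the label (adjusted p = 0.0303). It was named after its values were seen, as the single call of this model. The number called in this model was 0 without 2838c3, 6499c4, 6555c3, 6422c1 or 6694c2, 2 without 7160c2, 3 without 2699c4, 6 without 6419c1, 8 without 6421c2 and 19 without 6499c3. Without 2838c3, clone 6419c5 alone separates the 2 factors. The share of peaks with an unadjusted p under 0.05 was then 4.22%, against 11.2% with all 13 clones. With all 13 clones every named call other than the chromosome 3 peak was lost beside the label, Epcam with an adjusted p of 0.205 and St14 of 0.192. Beside the label Epcam had a log2 fold change of 1.83 and St14 of 2.45. Both fits use the same clones, which also chose these peaks. For the T cell coefficient in that model the edgeR test called 0 peaks and 5.03% had an unadjusted p under 0.05, and for T cell high against low alone 0 were called and 6.84% did.

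The values of the 2 crossing clones are a description. Both took part in the fit that called the Epcam, St14 and Igsf9b peaks, so their place at these peaks is no independent test. At the called Esrp1 peak 6419c5 lay inside the closed range. Clone 6419c5, T cell low with an open Cldn3 promoter, had 33 CPM at Epcam, 9.89 at St14 and 20.3 at Igsf9b, above every closed clone at all 3. Clone 2838c3, T cell high with a closed promoter, had 8.21 CPM at Epcam, 1.06 at St14 and 1.06 at Igsf9b, within or below the range of the other closed clones. Each clone was also placed at peaks called without it, on a scale from 0 (mean of the closed clones) to 1 (mean of the open clones). At the higher peaks 2838c3 had a median position of -0.16 with 91.8% of 98 peaks nearer the closed mean, and 6419c5 had 0.66 with 62.6% of 198 peaks nearer the open mean. Clone 6555c3 stood at 1.15 and 6499c4 at 0.97. Clone 6421c2 stood at 0.34, with 38.5% of 418 peaks nearer the open mean, so it lay nearer the closed mean at most of these peaks, and its Epcam signal was the highest of all clones. The 7 closed clones had 60.4% to 91.8% of peaks nearer their own mean. At the lower peaks the placing was less even, and 6499c3, a closed clone, stood at 0.76.

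**Figure D4:**
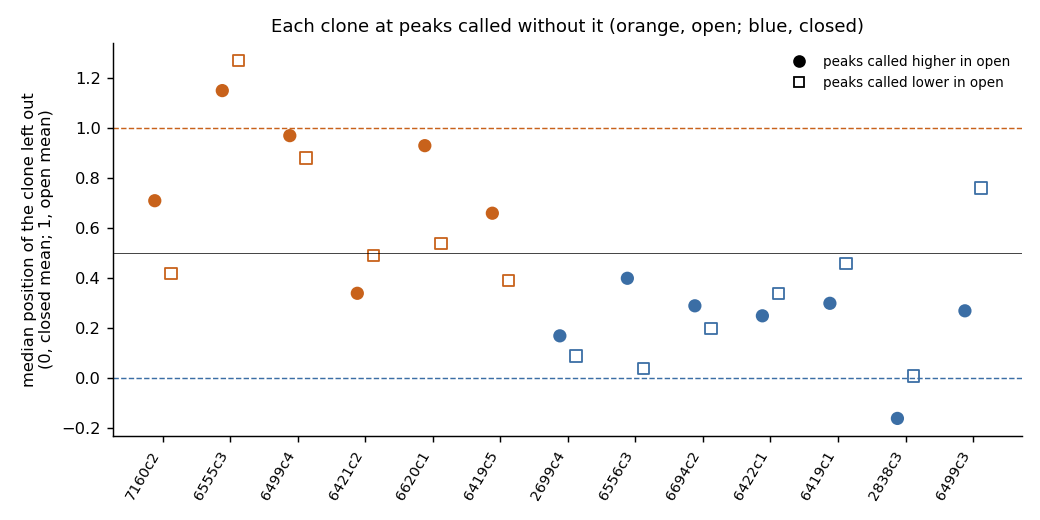
Median position of each clone (x axis, ordered by Cldn3) at peaks called without it, from 0 at the closed mean to 1 at the open mean (y axis); filled circles are peaks higher and open squares peaks lower in the open clones. 6421c2 is the open clone nearest the closed group at the higher peaks (0.34), and 2838c3 lies below the closed mean (-0.16).

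The 2 parental pairs were compared at peaks called without either clone of the pair. Of 147 peaks called higher without the clones of tumour 6419, 123 (83.7%) had more signal in 6419c5 than in 6419c1, with a median log2 difference of 1.07. Of 101 called higher without the clones of tumour 6499, 85 (84.2%) had more in 6499c4 than in 6499c3, with a median of 1.59. Over all tested peaks 49.1% and 50.7% were higher in the open clone of each pair. The lower peaks held in the 6419 pair (13 of 15) and not in the 6499 pair (7 of 16). With parental tumour as a factor in the model 28 peaks were called, 9 of them among the 274. Every other tumour had 1 clone, so that model compares open with closed clones only within these 2 pairs. A call lost in it therefore cannot show whether the difference depends on the tumour.

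Markers of other cells were checked at their gene-end peaks. Summed over 6 measured pan-leukocyte genes, the open clones had 45.3 to 102 CPM (median 92.9) and the closed clones 63.0 to 105 CPM (median 72.3). Of these Ptprc, which encodes CD45, had 5.89 to 22.8 CPM in the open and 4.95 to 14 CPM in the closed clones. The 3 measured T cell genes summed to 37.2 to 62.8 CPM against 25.3 to 82.2, the 3 macrophage genes to 16.7 to 31.9 against 16.8 to 43.0, the 3 fibroblast genes to 13.8 to 37.9 against 21.8 to 37.3, and the 2 acinar genes to 8.64 to 27.5 against 13.1 to 28.0. The groups overlapped in all of these sums, and 0 gene-end peaks of these lists were called. Cd3e, Cd3d, Cd8a, Csf1r, Dcn, Pecam1 and Cdh5 had no gene-end peak in the table. The part of other cells in the called differences was not tested.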

How the data were processed

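The deposited table held whole-number counts of reads in 67945 merged peaks, which the authors made with featureCounts 1.5.3, per the file headers. Per the submitters' processing notes, mm10 was the build and DESeq2 a tool. The sources used here name no aligner, peak caller or correction for the transposase offset. Replicate numbers follow accession order. Both ends of a fragment may be counted, so counts are not independent molecules.

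The analysis used edgeR 4.0.16 in R 4.3.3. Peaks outside the left-out window were filtered with filterByExpr by open and closed group, which left 59414, and libraries were scaled by TMM. Open clones were compared with closed clones over all 13 clones with the two-sided quasi-likelihood F-test (glmQLFit, glmQLFTest) and Benjamini-Hochberg adjustment at 0.05 over all tested peaks. Adjusted p values in the text come from this test in the fit of all 13 clones without other factors, unless another model or set of clones is named. Those other fits used the same test and adjustment. Standard errors are the log2 fold change divided by the root of F. The script was checked on simulated data. Levels are CPM on TMM-scaled libraries (prior count 2 for log2 CPM).

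Peaks were placed against 21887 protein-coding genes of RefSeq on GRCm38.p6, the assembly of mm10. Gene-end peaks are those within 1 kb of either end of a gene record (the peak with the highest mean count was used), and linked peaks those within 50 kb. Exons, introns and untranslated regions were not analysed here. Regional copy offsets were the median centred log2 CPM of tested peaks within 5 Mb, leaving out 100 kb. Of 310 listed genes 181 had a tested gene-end peak.

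The text names Cldn3 and Epcam, a set of epithelial and mesenchymal anchor genes, up to 5 further members of each list with the smallest p, the 15 peaks of smallest p in each direction with 1 peak per gene, and genes with 3 or more called peaks. The clones, gene lists and alternatives were chosen with earlier results of these data known. Fits with limma 3.58.1 (voom), DESeq2 1.42.0, other scalings, filters, thresholds and left-out clones served as alternatives. The 2 T cell intermediate samples were not analysed here. A further called peak, linked to a listed gene, is not reported here.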

Additional observations from a re-analysis of the deposited data

Results flagged for a closer look

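At the named peaks the highest and lowest clone of each group was compared with the others of that group, and 10 of 156 groups (6.41%) held a clone standing apart by Dixon's criterion, which chance flags in about 1 in 20 groups. In the open group, 6421c2 was low at Cdh2 with 7.75 CPM (the others 37.9 to 85.7) and high at Prom1 with 71.9 CPM (33.9 to 44.3). Clone 6419c5 was low at Twist1 with 13.7 CPM (35.9 to 56.3) and high at Nedd4l with 6.60 CPM (1.82 to 2.59). Clone 7160c2 was low at the leading Edn2 peak with 5.98 CPM (14.3 to 21.4), and 6620c1 was low at a peak of chromosome 3 far from any gene (chr3:149408749-149409756) with 0.864 CPM (2.48 to 3.99).

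In the closed group, 2838c3 was listed at 0.0 CPM at Lgals4 (the others 2.72 to 10.1) and was high at Ranbp3l with 39.2 CPM (20.5 to 26.8). Clone 6419c1 was high at the more accessible of the Cdx2 peaks with 41.4 CPM (27.5 to 32.8), and 6422c1 was low at the housekeeping gene Sdha with 25.8 CPM (36.9 to 48.2).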

How the results depend on the processing

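The 274 calls became 275 with DESeq2 size factors, 256 with upper-quartile scaling, 350 with no filter, 242 with regional copy offsets, 228 without chromosome 5 and 185 without the 2 shallowest libraries. They became 1 with the T cell label in the model, 43 with a filter that ignored the groups (27841 peaks tested), 1623 by DESeq2 and 507 by limma-voom. They became 28 with parental tumour as a factor, 136 with log2 CPM at Cldn3 as a covariate, and 18 and 16 with thresholds of 20 and 8 CPM. Without clones 6419c5 and 2838c3 there were 118, without the clones of tumour 6419 there were 162 and without those of tumour 6499 there were 117. Leaving out 1 clone gave 51 to 489 calls, and 0 to 19 in place of 1 with the T cell label in the model. Causes were not tested, and leaving out the shallowest libraries, leaving out parental tumours and leaving out clones beside the T cell label were alternatives chosen after seeing the data.

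The median of polarity and traffic genes was 0.48 with the T cell label against 0.23, and 0.10 to 0.49 over left-out clones. The median of skin and muscle markers was -0.16 at the leading linked peak and -0.19 with regional copy offsets, against -0.50. Called peaks named in the text kept their direction in every alternative that tested them, 871 times within and 370 times outside the threshold. Reversals concerned peaks with no call. With parental tumour as a factor Ocln was -0.06, Krt8 -0.32, Elf3 -0.29 and Krt7 -0.08. With the T cell label Krt19 was 0.23, Rab25 0.63 and Zeb1 0.02. Krt18 was 0.14 with regional copy offsets, 0.02 with the covariate, 0.37 at 20 CPM, 0.08 without 6419c5 and 2838c3 and 0.13 without the clones of tumour 6419. Klf5 was 0.0043 at 20 CPM. Over left-out clones Krt18 ranged from -0.17 to 0.08, Krt19 from -0.39 to 0.03 and Ocln from -0.06 to 0.24. Replicate numbers follow accession order and pair no clones, so the paired analysis was the fit with parental tumour as a factor, in which 40 of the 43 named calls were lost. In that fit only the parental pairs compare open with closed clones, so these losses and its reversals rest on few clones.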
